A study of Homo sapiens with 15 samples.

Results

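The response of MDA-MB-231 cells to HIPP was set against their response to CtBP2 knockdown, gene by gene, as the mean log2 ratio to control of the 5 HIPP arrays minus that of the 5 shCtBP2 arrays. These 10 arrays are part of a series of 15, whose other 5 arrays were treated with P4. MDA-MB-231 is a mesenchymal, triple-negative human breast cancer line. The HIPP group was MDA-MB-231 cells exposed to HIPP, sodium 2-hydroxyimino-3-phenylpropanoate, a small molecule CtBP2 inhibitor, and collected 24 hours after treatment; the concentration used for the arrays is not given in the sources used here. The shCtBP2 group was MDA-MB-231 cells with stable RNA interference of CtBP2, from a transfected short hairpin clone followed by puromycin selection. On every array the Cy5 channel held the treated or knockdown RNA and the Cy3 channel held control RNA, which the labels name as untreated MDA-MB-231 cells; no dye was swapped. The study's methods and legends also describe scrambled hairpin cells as a control for the knockdown, so which of these the shCtBP2 arrays used is not settled. If it was untreated cells, as labelled, the effects of hairpin transfection and selection cannot be told apart from that of the knockdown, and with either control a stable line was compared with an acute treatment. The labels call the 5 arrays of each group biological replicates.

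CtBP1 and CtBP2 are paralogous transcriptional corepressors that dimerise when bound to NADH and bring histone deacetylases, demethylases and methyltransferases to DNA-bound repressors such as ZEB1. Their fold is that of a dehydrogenase, and HIPP belongs to a class of phenylpyruvate derivatives made to occupy the substrate pocket of that fold. The comparison asks which genes the compound moved beyond, or against, the knockdown of CtBP2.

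Of 30992 genes or unnamed transcripts with enough measured spots, the 3410 whose channel signals varied least were removed and 27582 were tested. Differences are on the log2 scale throughout, so 1 is 2-fold, and a gene was called when the limma adjusted p was under 0.05 and the difference was at least 2-fold. Called genes numbered 2813 (10.2% of those tested), of which 1444 (5.24%) were higher with HIPP and 1369 (4.96%) were lower. Their median difference was 1.33 among the higher and −1.48 among the lower genes, beside a median of 0.14 over all genes tested. In 5163 genes (18.7% of all tested) no HIPP array overlapped any shCtBP2 array. Of these, 2338 were called (8.48% of all tested). Above and below control describe mean ratios, and only the difference between the groups was tested. The counts depended on the signal used, since correcting the scanned mean signals by normexp and loess left 306 higher and 268 lower calls, and uncorrected mean signals left 27 and 212. They also depended on the filter, which was taken over signals not scaled between arrays and removed lower genes above all: without it 482 of the 3410 removed genes were called, 481 of them lower, and the calls over all genes became 1478 higher and 1881 lower (44.0% higher, against 51.3% with the filter). Each list count below is of the genes tested after that filter, and its share called can be read against 10.2% of all genes tested.

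The same contrast was made in the control channel, which held control RNA in both groups. There limma called 0 genes, and 0 at any fold. With an unadjusted p under 0.05, 3977 genes passed at any fold (14.4%) and 731 with a 2-fold difference (2.65%), and the test named in the study's methods, with adjustment, called 0. Of the 2813 called genes, 2738 had a larger difference in the treated channel than in the control channel. Ratios spread more between HIPP arrays (median SD 0.40 over genes) than between shCtBP2 arrays (0.26). No array had saturated spots, and 65.2% to 77.5% of treated-channel spots were well above background in these 10 arrays. HIPP replicates 1 to 3 shared a slide with 1 P4 array, HIPP replicates 4 and 5 shared slide 3 with shCtBP2 replicates 1 and 2, and shCtBP2 replicates 3 to 5 were on a slide of their own, so values within slide 3 rest on 2 arrays against 2.

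**Figure D1:**
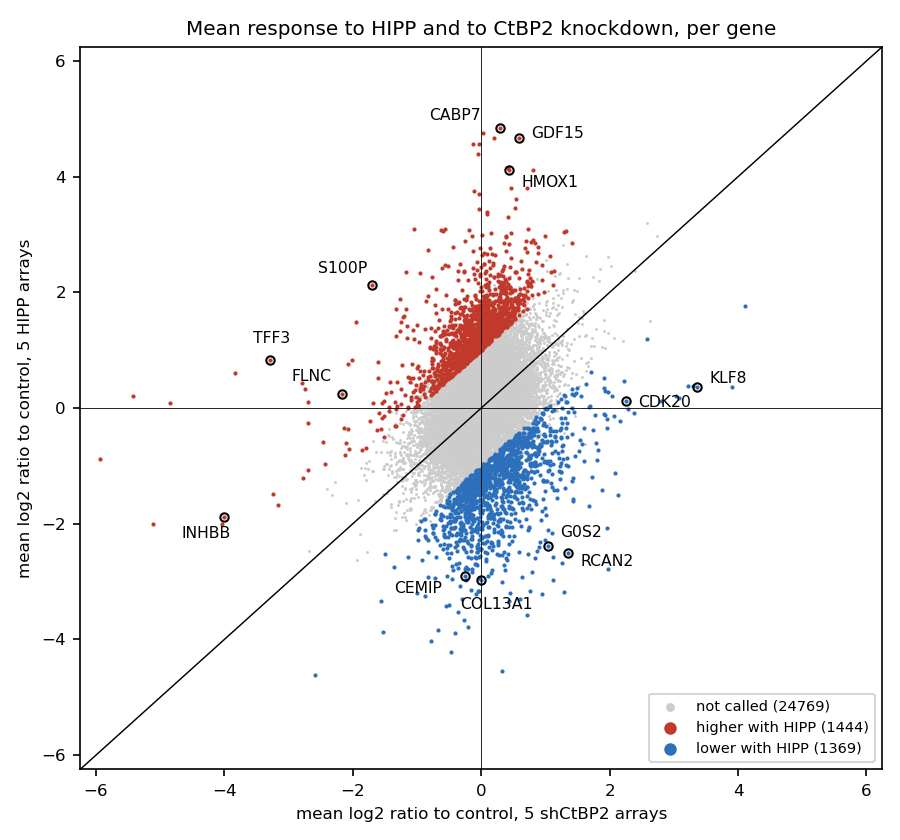
Each point is 1 of the 27582 genes tested, with its mean log2 ratio to control over the 5 shCtBP2 arrays on the x axis and over the 5 HIPP arrays on the y axis; the diagonal marks equal responses. The 1444 genes called higher with HIPP lie above the diagonal and the 1369 called lower lie below it, and most of both stand near 0 on the x axis.

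CTBP2, the hairpin's target, had ratios of 0.32, 0.62, 0.13, 1.05 and 0.75 on the HIPP arrays and −0.36, −0.35, −0.59, −0.44 and −0.29 on the shCtBP2 arrays. All 5 knockdown arrays were below control, all 5 HIPP arrays were above it, and the groups did not overlap. On the shCtBP2 arrays the CTBP2 probes averaged −0.42 and −0.39, a partial reduction short of 1.5-fold. The difference was 0.98 ± 0.18 (SE), limma adjusted p = 0.00261, short of 2-fold, and its probes gave 1.20 and 0.76. With slide as a fixed block CTBP2 was at 1.26 (limma adjusted p = 0.00507), which passed both thresholds. CTBP1, the paralogue, was removed as too little variable, and 1 of its probes was higher with HIPP (0.77) while the others were lower (−0.71 to −0.93). Among 9 tested markers expected in this line, CD44, MMP14 and LOX were called higher with HIPP and CAV1 (−1.60, limma adjusted p = 8.51e-05) lower (44.4%, beside 10.2% of all genes), all well above background. PLAU, a further marker removed by the filter, was called lower without it (−2.12, limma adjusted p = 5.56e-05). The progesterone receptor gene PGR and the E-cadherin gene CDH1 were not well above background on any of the 10 arrays. Of 9 leukocyte markers PTPRC and MS4A1 had no array with a treated-channel signal well above background, while CD68 was called higher (1.52, limma adjusted p = 0.000136) and CSF1R lower (−1.01, limma adjusted p = 0.00087). Of 6 endothelial markers PECAM1 was called lower (−2.23, limma adjusted p = 2.47e-05), and no adipocyte or erythroid marker of 4 each was called by limma, with HBB (−0.78, limma adjusted p = 0.0205) passing the p threshold short of 2-fold. The part of such markers in the other results was not tested, and in bulk RNA fewer cells with a transcript and less transcript per cell cannot be told apart.

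Among bright genes, meaning those well above background in both channels on at least 4 of 5 arrays of each group, the highest with HIPP included TFF3, GDF15, S100P and HMOX1. TFF3, a secreted trefoil peptide of mucosal epithelia (chromosome 21, 42605215 to 42608659, hg17), had ratios of 0.87, 0.89, 1.17, 0.45 and 0.81 on the HIPP arrays and −3.01, −2.89, −3.36, −3.57 and −3.62 on the shCtBP2 arrays. HIPP arrays were all above control and knockdown arrays all far below it, for a difference of 4.13 ± 0.19 (SE), limma adjusted p = 2.60e-06. GDF15, a stress-induced cytokine of the TGF-beta superfamily (chromosome 19, 18360890 to 18360949), had ratios of 4.58, 5.22, 5.28, 4.39 and 3.85 on the HIPP arrays and 0.01, 0.79, 0.42, 1.09 and 0.61 on the shCtBP2 arrays. Its lowest HIPP array stood far above its highest knockdown array, and the difference was 4.08 ± 0.30 (SE), limma adjusted p = 1.75e-05. HMOX1, which degrades heme (chromosome 22, 34114676 to 34114735), had ratios of 3.86, 4.36, 4.31, 3.58 and 4.43 on the HIPP arrays and 0.43, 0.32, 0.69, 0.35 and 0.33 on the shCtBP2 arrays. The HIPP arrays lay within a narrow band well clear of the knockdown arrays (3.68 ± 0.18 (SE), limma adjusted p = 4.09e-06).

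S100P, a calcium-binding S100 protein (chromosome 4, 6816891 to 6816950), moved in opposite directions, with ratios of 2.61, 2.58, 2.65, 2.07 and 0.72 on the HIPP arrays and −1.96, −1.497, −2.003, −1.52 and −1.53 on the shCtBP2 arrays. Each HIPP array was above control and each knockdown array below it (3.83 ± 0.35 (SE), limma adjusted p = 4.45e-05). EID3, an inhibitor of EP300 and a component of the SMC5-SMC6 complex, was likewise split around control, at 3.06 ± 0.60 with HIPP and −0.59 ± 0.50 in shCtBP2 cells (SD, n = 5 each), a difference of 3.66 ± 0.32 (SE), limma adjusted p = 3.77e-05. ADM, the vasodilator peptide adrenomedullin, averaged 1.59 ± 0.70 with HIPP and −1.20 ± 0.39 in shCtBP2 cells (SD, n = 5 each), and its difference was 2.80 ± 0.32 (SE), limma adjusted p = 0.000177. VPS18, a core subunit of the endosomal tethering complexes, was high with HIPP but unevenly so, with ratios of 2.05, 3.59, 1.62, 4.50 and 5.22 on the HIPP arrays and 0.00, 0.07, 0.02, 0.06 and 0.29 on the shCtBP2 arrays. Its lowest HIPP array was still above every knockdown array (3.31 ± 0.60 (SE), limma adjusted p = 0.00278).

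In DMKN and BOLA1 the knockdown mean, and not the HIPP mean, was past 1.5-fold from control. DMKN, a secreted skin protein, averaged 0.44 ± 0.41 with HIPP and −2.79 ± 0.57 in shCtBP2 cells (SD, n = 5 each), and BOLA1, a mitochondrial protein linked to iron-sulphur clusters, averaged 0.33 ± 0.44 with HIPP and −2.74 ± 1.01 in shCtBP2 cells (SD, n = 5 each). Their differences were 3.22 ± 0.29 (SE), limma adjusted p = 4.29e-05, and 3.07 ± 0.44 (SE), limma adjusted p = 0.000607, and within slide 3 the BOLA1 difference was 1.57. In the next genes the HIPP mean alone was past 1.5-fold. FBXW10B and FBXW10, near-identical F-box paralogues whose probes may share signal, differed by 3.34 and 3.07. CABP7, a neuronal calcium-binding protein, had the largest difference of the bright genes, 4.55 ± 0.69 (SE), limma adjusted p = 0.0009. Its control signal was also 2.37 higher on the HIPP arrays, so the ratio difference does not equal its treated-channel difference.

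**Figure D2:**
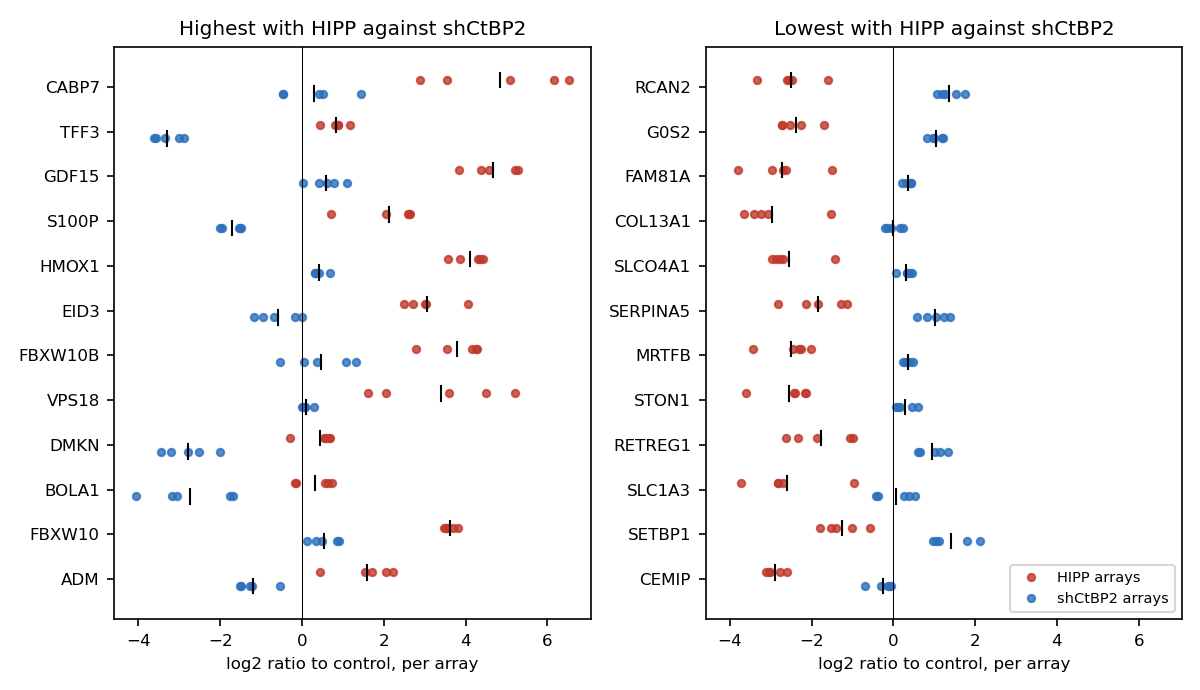
Log2 ratio to control on each array (points) and group mean (bar) for the 12 bright genes highest with HIPP against shCtBP2 (left) and the 12 lowest (right), with 5 HIPP and 5 shCtBP2 arrays per gene. The 24 genes were taken only from called genes whose groups do not overlap. RCAN2, G0S2, SERPINA5, RETREG1 and SETBP1 have the knockdown means farthest above 0 of the 12 lowest.

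At the other end, the lowest bright genes with HIPP included RCAN2, G0S2, COL13A1, MRTFB and CEMIP. RCAN2, a calcineurin regulator (chromosome 6, 46296434 to 46296467), had ratios of −2.56, −2.48, −2.60, −1.59 and −3.33 on the HIPP arrays and 1.18, 1.52, 1.06, 1.75 and 1.26 on the shCtBP2 arrays. Every HIPP array was below control and every knockdown array above it (−3.87 ± 0.28 (SE), limma adjusted p = 1.73e-05). G0S2, an inhibitor of adipose triglyceride lipase (chromosome 1, 206237992 to 206238051), had ratios of −2.71, −2.26, −2.72, −1.69 and −2.51 on the HIPP arrays and 0.96, 1.18, 0.81, 1.21 and 1.00 on the shCtBP2 arrays. It too was low on all HIPP arrays and raised on all knockdown arrays (−3.41 ± 0.20 (SE), limma adjusted p = 6.71e-06). COL13A1, a transmembrane collagen (chromosome 10, 71388613 to 71388876), had ratios of −3.66, −3.07, −3.40, −1.52 and −3.23 on the HIPP arrays and −0.16, 0.23, −0.20, 0.17 and −0.06 on the shCtBP2 arrays. The knockdown arrays stayed around control while HIPP replicate 4 stood nearer to control than the other HIPP arrays (−2.97 ± 0.35 (SE), limma adjusted p = 0.000186).

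MRTFB, a coactivator of serum response factor, averaged −2.49 ± 0.54 with HIPP and 0.35 ± 0.10 in shCtBP2 cells (SD, n = 5 each), a difference of −2.84 ± 0.24 (SE), limma adjusted p = 3.03e-05. CEMIP, which drives hyaluronan breakdown, differed by −2.65 ± 0.17 (SE), limma adjusted p = 7.57e-06, though 1 of its probes gave −0.55 and the others −3.70 and −3.68. SLC1A3, a glutamate and aspartate transporter, averaged −2.60 ± 1.01 with HIPP and 0.08 ± 0.44 in shCtBP2 cells (SD, n = 5 each) (−2.68, limma adjusted p = 0.00139). SLCO4A1, an organic anion transporter, STON1, an endocytic adaptor, and FAM81A differed by −2.86, −2.83 and −3.08, with knockdown means of 0.32, 0.28 and 0.36. The genes SERPINA5 (the protein C inhibitor), RETREG1 (a receptor for autophagy of the endoplasmic reticulum) and SETBP1 (a SET-binding protein), averaged below control with HIPP and above it in the knockdown. Their differences were −2.86, −2.73 and −2.67. All 24 of these genes kept their direction within slide 3.

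Some genes were visible in 1 group alone, so the difference is only a bound there. The bound sets the bright group's mean against the lowest signal of probes well above background on the arrays of the dim group, or the dim probe's own signal where that was higher. FMOD, the matrix proteoglycan fibromodulin, was not well above background in any shCtBP2 array and was at least 2.16-fold higher with HIPP (limma adjusted p = 1.31e-05). CGB1, a chorionic gonadotropin beta subunit from a family of near-identical copies, was at least 2.18-fold higher, and SLC51B, a bile acid and steroid transporter subunit, at least 2.84-fold higher. ADAM20 was at least 1.36-fold higher. In the other direction MED18, a Mediator subunit, was at least 2.33-fold lower with HIPP, GIMAP2 at least 1.79-fold, RBM11, a splicing regulator, at least 1.71-fold and PLD5 at least 1.47-fold lower. Limma adjusted p for these 7 ran from 7.23e-06 to 0.0137. In 342 called genes the treated channel was dim on all arrays of 1 group, in 85 more it was dim on all arrays of both, and 2017 of the 2813 called genes were bright.

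The called genes were sorted by whether each group's mean ratio passed 1.5-fold from control, as a description with no test of its own. For 2123 of them (75.5%) HIPP alone was past 1.5-fold, 1157 up and 966 down. In 302 (10.7%) the groups were past 1.5-fold in opposite directions, with 97 higher and 205 lower with HIPP. The knockdown alone was past 1.5-fold in 238 (8.46%). In 104 (3.70%) both moved the same way and HIPP went further, while 18 moved further in the knockdown and 28 were past 1.5-fold in neither.

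**Figure D3:**
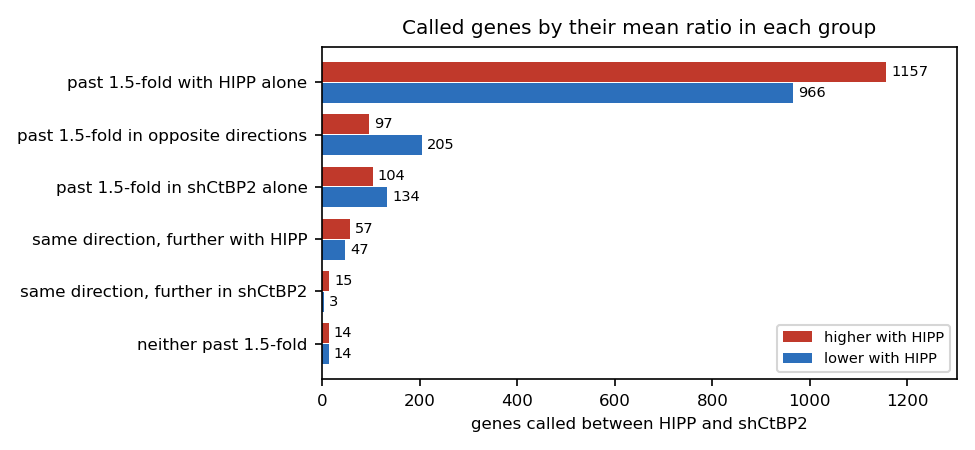
Number of called genes in each class of mean ratios, with genes higher with HIPP in red and lower in blue. HIPP alone past 1.5-fold is the largest class (1157 higher and 966 lower), and among genes moved in opposite directions more were lower (205) than higher (97) with HIPP.

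Among bright genes moved against the knockdown, IL6R, the interleukin 6 receptor (chromosome 1, 151251989 to 151252048), had ratios of 2.13, 2.22, 2.25, 1.12 and 2.56 on the HIPP arrays and −0.95, −0.70, −0.67, −0.61 and −0.60 on the shCtBP2 arrays. All HIPP arrays were above control and all knockdown arrays below it (2.76 ± 0.24 (SE), limma adjusted p = 3.78e-05). IRX5, a homeobox transcription factor, differed by 2.76 ± 0.38 (SE), limma adjusted p = 0.000518, but its probes gave 4.30 and 1.22. AMOT, the junctional YAP regulator angiomotin, averaged −1.92 ± 0.71 with HIPP and 0.69 ± 0.27 in shCtBP2 cells (SD, n = 5 each) (−2.61 ± 0.31 (SE), limma adjusted p = 0.000192). The HIF-2 alpha gene EPAS1 averaged 0.80 ± 0.39 with HIPP and −1.61 ± 0.32 in shCtBP2 cells (SD, n = 5 each), and its difference was 2.40 ± 0.22 (SE), limma adjusted p = 4.74e-05. EGR1, an immediate early transcription factor, also went in opposite directions on average, at −0.92 ± 0.60 with HIPP and 1.04 ± 1.06 in shCtBP2 cells (SD, n = 5 each). Its groups overlapped (−1.96 ± 0.48 (SE), limma adjusted p = 0.0137).

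Genes moved the same way and further by HIPP included TRPM4, a calcium-activated cation channel, at 2.54 ± 0.23 with HIPP and 0.61 ± 0.29 in shCtBP2 cells (SD, n = 5 each) (1.92, limma adjusted p = 4.71e-05). INSIG1 and NUPR1 were in this class too and are described with their pathways. On the falling side, CAVIN2, a caveola coat protein, averaged −2.63 ± 0.41 with HIPP and −0.92 ± 0.42 in shCtBP2 cells (SD, n = 5 each) (−1.72, limma adjusted p = 0.000636), and IGFBP4, AFAP1 and ERP27 differed by −1.34, −1.41 and −1.39. Within slide 3 the differences of IGFBP4 and AFAP1 were −0.99 and −0.94, with limma adjusted p of 0.0839 and 0.0994 with slide as a block.

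Where the knockdown alone departed from control, FLNC, the actin crosslinker filamin C, had ratios of 0.18, 0.29, 0.65, 0.30 and −0.19 on the HIPP arrays and −2.07, −2.34, −2.03, −2.40 and −2.04 on the shCtBP2 arrays. It was low on every knockdown array and near control with HIPP (2.42 ± 0.17 (SE), limma adjusted p = 1.42e-05). CDK20, a cyclin-dependent kinase, showed the reverse, at 0.12 ± 0.23 with HIPP and 2.25 ± 0.11 in shCtBP2 cells (SD, n = 5 each) (−2.13 ± 0.14 (SE), limma adjusted p = 1.05e-05). KLF8, a repressor that binds CtBP, averaged 0.36 ± 0.40 with HIPP and 3.36 ± 1.07 in shCtBP2 cells (SD, n = 5 each), but its control channel was above background on 1 of 5 shCtBP2 arrays, so that the size of the difference is not measured, and it ran from −3.37 to −0.90 over the settings, with the call lost after normexp and loess and within slide 3. TMEM139, ELMOD1 and SRPX differed by 1.80, −1.59 and −1.54. PPFIA4, a liprin, was called at −1.48, limma adjusted p = 0.0284, but its groups overlapped and its difference within slide 3 was −0.16.

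The integrated stress response, in which phosphorylation of eIF2 alpha lowers general translation and raises translation of ATF4, was higher with HIPP than in the knockdown for 10 of its genes. Of 19 tested regulators and targets, these 10 were called higher and 0 lower (52.6%), with a median difference of 1.08 against 0.14 over all genes. After normexp and loess 6 were called, and with uncorrected mean signals 2, with a median of 0.43. The list's median ratio was 1.49 with HIPP and 0.28 in the knockdown. ATF4 itself averaged 1.60 ± 0.17 with HIPP and 0.40 ± 0.26 in shCtBP2 cells (SD, n = 5 each), a difference of 1.20 ± 0.16 (SE), limma adjusted p = 0.000346. PPP1R15A, which directs dephosphorylation of eIF2 alpha, had ratios of 1.94, 2.35, 2.19, 2.07 and 2.84 on the HIPP arrays and 0.14, −0.25, 0.13, −0.24 and 0.09 on the shCtBP2 arrays. The HIPP arrays were all raised and the knockdown arrays straddled control (2.30 ± 0.18 (SE), limma adjusted p = 2.59e-05). NUPR1, a stress-induced chromatin protein, differed by 2.20 ± 0.16 (SE), limma adjusted p = 1.98e-05, while its control signal was also 1.58 higher on HIPP arrays.

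ATF3, a transcription factor induced by ATF4, had ratios of 2.97, 2.10, 2.39, 1.39 and 2.16 on the HIPP arrays and 1.25, 0.77, −0.40, 0.06 and −0.37 on the shCtBP2 arrays. HIPP arrays were all above knockdown arrays (1.94 ± 0.37 (SE), limma adjusted p = 0.0036), but within slide 3 the difference was 0.76 and with slide as a block the limma adjusted p was 0.146. SESN2, an inhibitor of mTORC1 signalling, CEBPG, a partner of ATF4, and TRIB3, a pseudokinase target of ATF4, differed by 1.68, 1.25 and 1.11, and with slide as a block TRIB3 was at 0.57 (limma adjusted p = 0.122). EIF2AK2, the eIF2 alpha kinase PKR, was called higher (1.41, limma adjusted p = 0.00338), whereas the kinase genes EIF2AK3 (−0.50, limma adjusted p = 0.283) and EIF2AK1 (−0.06, limma adjusted p = 0.853) were not. DDIT3, which encodes CHOP, differed by 0.97, limma adjusted p = 0.0583, and CHAC1, a glutathione-degrading enzyme, by 0.85, limma adjusted p = 0.00881, with DDIT3 missing the p threshold as well as the fold and CHAC1 the fold alone.

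ATF4 is known to drive many genes of amino acid metabolism. Among 17 cytosolic aminoacyl-tRNA synthetases, which charge tRNAs, 2 (11.8%, near the 10.2% of all genes) were called higher and 0 lower (median 0.14): WARS1 (1.45 ± 0.16 (SE), limma adjusted p = 0.000119) and AARS1 (1.30 ± 0.13 (SE), limma adjusted p = 6.83e-05). IARS1, removed by the filter, was called lower without it (−1.02, limma adjusted p = 0.00572), whereas QARS1 and FARSA, also removed, were not called. Of 24 amino acid transporters 5 were called higher and 4 lower (37.5% called, against 10.2% of all genes), 1 and 0 after normexp and loess, around a median of 0.29 that turned to −0.02 with uncorrected mean signals. SLC3A2 and SLC7A5, the chains of the large neutral amino acid exchanger, differed by 1.60 ± 0.15 (SE), limma adjusted p = 5.48e-05, and 1.30 ± 0.15 (SE), limma adjusted p = 0.000153. The neutral amino acid carriers SLC1A4 (1.70, limma adjusted p = 0.00305) and SLC1A5 (1.03, limma adjusted p = 0.0026) and the cystine importer SLC7A11 (1.08, limma adjusted p = 0.0281) were also higher. The lower transporters were SLC1A3, SLC1A1 (−1.72, limma adjusted p = 0.000796), SLC38A4 (−1.36, limma adjusted p = 0.00544) and SLC3A1 (−1.52, limma adjusted p = 0.00236), of which SLC1A3 and SLC1A1 carry glutamate and aspartate. With HIPP, SLC38A4 had a treated signal clear of background on 2 of 5 arrays and SLC3A1 on 1 of 5, and SLC3A1 differed by −0.072 in the setting that moved it most toward 0. Blocked on slide, SLC1A4 was at 0.95 (limma adjusted p = 0.0224), SLC1A5 at 0.62 (limma adjusted p = 0.0904) and SLC7A11 at 0.32 (limma adjusted p = 0.537), none of them called. The probes of SLC1A4 gave 2.63 and 0.78, and those of SLC1A1 gave −0.78 and −2.67.

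Among 16 enzymes of glutamine, asparagine, aspartate and proline metabolism, 3 were called higher and 1 lower (25.0% called, against 10.2% of all genes). PYCR1, the last enzyme of proline synthesis, differed by 1.36 ± 0.18 (SE), limma adjusted p = 0.000448, and ASNS, asparagine synthetase, by 1.19 ± 0.16 (SE), limma adjusted p = 0.000384, with probe values of 2.12 and 0.26. The third, the liver-type glutaminase GLS2, was well above background in the treated channel on 5 of 5 HIPP arrays and 1 of 5 shCtBP2 arrays. Its difference (1.35, limma adjusted p = 0.00258) fell to 0.068 with uncorrected mean signals. With slide as a block PYCR1 was at 0.95 (limma adjusted p = 0.00532), short of 2-fold. OAT, ornithine aminotransferase, was lower, at −1.61 ± 0.30 with HIPP and −0.10 ± 0.11 in shCtBP2 cells (SD, n = 5 each) (−1.51 ± 0.16 (SE), limma adjusted p = 0.000106). Of 15 serine, one-carbon and transsulfuration enzymes 2 (13.3%, again near the share of all genes) were called, MTHFD2, a mitochondrial folate enzyme (1.21, limma adjusted p = 0.000466), and CTH, cystathionine gamma-lyase (1.02, limma adjusted p = 0.000646). A slide block put MTHFD2 at 0.75 (limma adjusted p = 0.0146), short of 2-fold. In CTH both groups were above control, at 2.00 ± 0.18 with HIPP and 0.98 ± 0.21 in shCtBP2 cells (SD, n = 5 each). The CTH call was lost in 10 of 26 settings, among them median centring and the treated channel alone. Endoplasmic reticulum chaperones and unfolded protein response genes gave 2 higher calls of 24 tested (8.33%, beside 10.2% of all genes), ERO1B (1.47, limma adjusted p = 0.00129) and DNAJC3 (1.09, limma adjusted p = 0.000278), while HSP90B1, XBP1 and HERPUD1 differed by 0.05, 0.44 and 0.05, which were not called.

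Metallothioneins, small cysteine-rich proteins that bind zinc and copper, were mostly higher with HIPP than in the knockdown. Counting their regulator MTF1 and the zinc exporter SLC30A1, 10 of 12 genes were called higher and 0 lower (83.3%), with a median of 1.22. MT2A (chromosome 16, 55200782 to 55200892) had ratios of 1.27, 1.43, 1.30, 1.55 and 1.57 on the HIPP arrays and −0.04, −0.18, 0.21, 0.04 and 0.01 on the shCtBP2 arrays. All HIPP arrays were above all knockdown arrays (1.42 ± 0.13 (SE), limma adjusted p = 4.30e-05), while its control-channel difference was −0.63. Its treated-channel difference was 0.79, so its call was lost with the treated channel alone. MTF1, the metal-sensing transcription factor, had ratios of 1.82, 2.37, 1.85, 2.08 and 2.26 on the HIPP arrays and 0.43, 0.40, 0.38, 0.35 and 0.38 on the shCtBP2 arrays. Each HIPP array was more than 1 above the knockdown arrays, which were close together (1.69 ± 0.14 (SE), limma adjusted p = 2.99e-05).

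MT1M averaged 1.30 ± 0.36 with HIPP and −0.59 ± 0.26 in shCtBP2 cells (SD, n = 5 each) (1.89, limma adjusted p = 0.0001), and MT1B, MT1E, MT1F, MT1G, MT1X, MT1A and MT1H differed by 1.53, 1.31, 1.25, 1.20, 1.15, 1.07 and 1.06. These paralogues are nearly identical in sequence and their probes may read one another, so the members are not independent measurements. SLC30A1 (0.96, limma adjusted p = 0.0621) and the brain form MT3 (−0.29, limma adjusted p = 0.31) were not called. With uncorrected mean signals 0 of the 12 were called, with a median of 0.49, and with slide as a block MT1A and MT1H fell short of 2-fold (0.94 each).

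The metal response element, to which MTF1 binds, was looked up in the 250 bases upstream of each gene's start because the metallothionein genes moved together. Promoters are from RefSeq (GRCh38.p14) and the core searched was TGCACNC on both strands, 1 of the forms of the element. Of the 6 list members with an entry, 5 held it (MT1B, MT1H, MT1X, MT2A and SLC30A1), beside 2658 of 27305 promoters of the same length (9.73%). Matches in either direction are in capitals in the following promoters of MT2A (chr16:56608334-56608583 on the plus strand), MT1X (chr16:56682220-56682469 on the plus strand) and SLC30A1 (chr1:211579162-211579411 on the minus strand), written 5′ to 3′ in the direction of the gene. The MT2A window holds 5 matches, the MT1X window 2 and the SLC30A1 window 1.
MT2A: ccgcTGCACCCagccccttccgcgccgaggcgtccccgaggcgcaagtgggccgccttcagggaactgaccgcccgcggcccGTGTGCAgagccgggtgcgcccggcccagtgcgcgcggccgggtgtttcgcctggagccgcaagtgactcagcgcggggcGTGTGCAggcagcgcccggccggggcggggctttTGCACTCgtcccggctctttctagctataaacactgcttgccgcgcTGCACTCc
MT1X: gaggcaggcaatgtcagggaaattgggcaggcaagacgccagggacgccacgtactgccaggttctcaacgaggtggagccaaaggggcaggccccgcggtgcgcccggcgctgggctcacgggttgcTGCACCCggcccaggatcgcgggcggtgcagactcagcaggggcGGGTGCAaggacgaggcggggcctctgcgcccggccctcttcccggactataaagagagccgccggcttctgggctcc
SLC30A1: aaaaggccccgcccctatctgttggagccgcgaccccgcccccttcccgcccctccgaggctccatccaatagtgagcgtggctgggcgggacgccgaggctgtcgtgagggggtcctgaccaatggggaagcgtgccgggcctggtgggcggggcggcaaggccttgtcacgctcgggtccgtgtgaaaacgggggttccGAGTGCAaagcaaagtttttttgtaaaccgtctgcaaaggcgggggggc
A match is a description of letters, and binding was not measured.

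For the integrated stress response list the composite site of C/EBP and ATF factors, TGATGNAAN on both strands, was in 3 of 18 promoters with an entry (ATF3, CHAC1 and FGF21), beside 3.18% of all promoters. The CHAC1 window (chr15:40953221-40953470 on the plus strand) and the ATF3 window (chr1:212565157-212565406 on the plus strand) are shown with the match in capitals, since ATF3 was called and CHAC1, not called, is a well-known ATF4 target.
CHAC1: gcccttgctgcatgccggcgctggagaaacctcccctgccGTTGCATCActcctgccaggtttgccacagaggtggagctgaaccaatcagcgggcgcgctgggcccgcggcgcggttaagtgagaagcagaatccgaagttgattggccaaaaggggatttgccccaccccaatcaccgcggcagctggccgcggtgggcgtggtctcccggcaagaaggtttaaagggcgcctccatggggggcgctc
ATF3: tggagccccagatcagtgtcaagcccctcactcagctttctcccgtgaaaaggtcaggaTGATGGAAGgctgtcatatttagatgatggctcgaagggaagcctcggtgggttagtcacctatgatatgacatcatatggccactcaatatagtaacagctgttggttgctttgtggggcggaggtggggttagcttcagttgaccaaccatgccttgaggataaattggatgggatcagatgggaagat
In the other lists searched, the antioxidant response element core TGACNNNGC was in 4 of 18 NRF2 target promoters (GCLM, ME1, PGD and TXNRD1), beside 11.03% of all, and the sterol regulatory element TCACNCCAC in 1 of 18 cholesterol synthesis promoters (SREBF2), beside 0.875%.

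**Figure D4:**
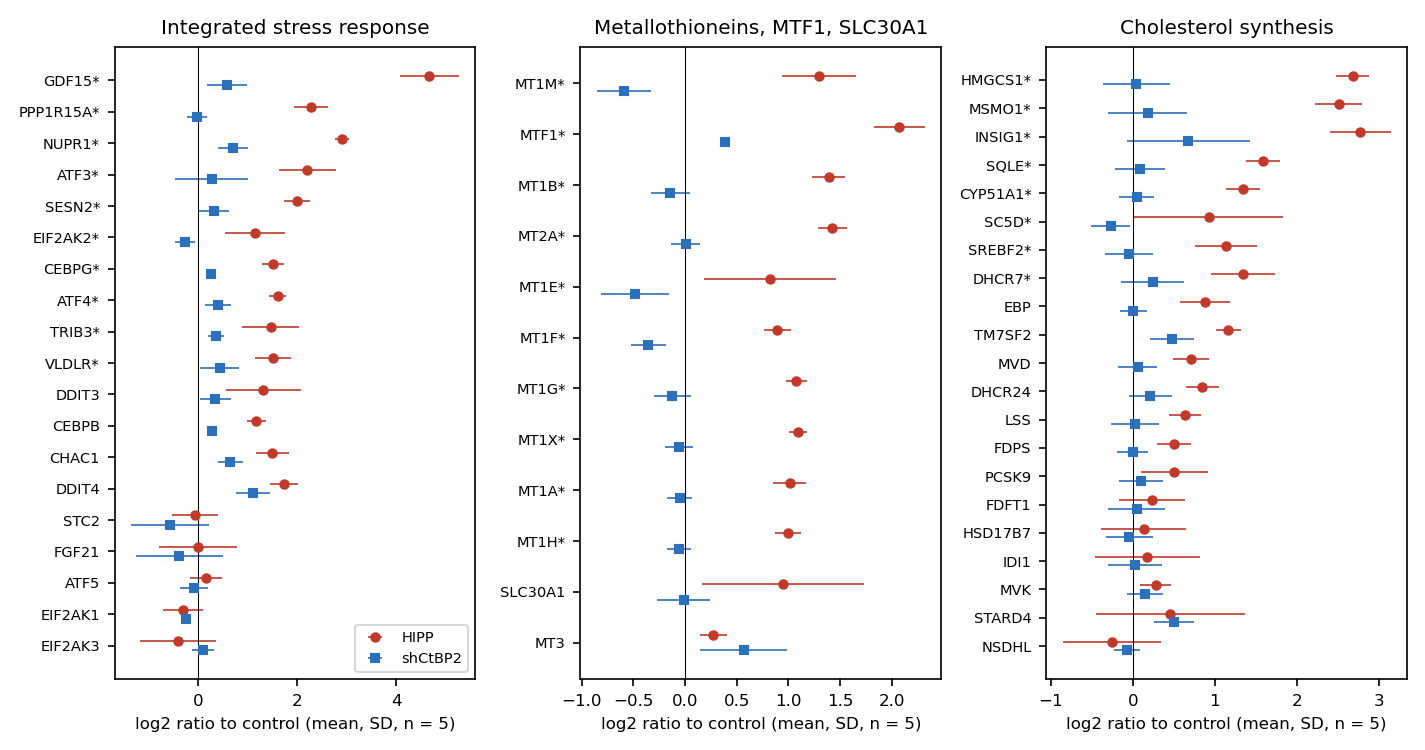
Mean log2 ratio to control with SD over 5 HIPP arrays (circles) and 5 shCtBP2 arrays (squares) for tested genes of 3 lists (not every cholesterol synthesis gene is drawn); an asterisk marks a called gene. The knockdown means lie close to 0 for most genes, and of the whole lists 10 of 19, 10 of 12 and 9 of 23 genes were called, all of them higher with HIPP.

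NRF2, a transcription factor that responds to electrophiles and oxidants, drives a set of detoxifying enzymes, of which 7 of 23 tested were called higher and 0 lower (30.4%), 3 and 0 after normexp and loess. Their median was 0.59, and it turned to −0.11 with uncorrected mean signals. HMOX1 was the highest, followed by AKR1B10, an aldo-keto reductase (1.86, limma adjusted p = 0.0019), ABCC2, an exporter of conjugates (1.45, limma adjusted p = 4.49e-05), and SRXN1, sulfiredoxin (1.35, limma adjusted p = 0.000104). GCLM, the modifier subunit of glutamate-cysteine ligase, and OSGIN1 differed by 1.04 and 1.14. Blocked on slide, AKR1B10 was at 1.04 (limma adjusted p = 0.0821), GCLM at 0.93 (limma adjusted p = 0.0389) and OSGIN1 at 0.69 (limma adjusted p = 0.0561), none of them called. NQO1, a common reporter of NRF2, differed by −0.16, limma adjusted p = 0.705, and was not called. Among 20 other antioxidant and glutathione enzymes 2 were called, a share near the 10.2% of all genes: 1 was higher, TXNIP, the thioredoxin inhibitor (1.57, limma adjusted p = 0.00781), and 1 lower, PRDX3, a mitochondrial peroxiredoxin whose probes gave −2.43 and 0.08. The TXNIP groups overlapped, and with slide as a block it was at 0.93 (limma adjusted p = 0.183).

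Of 21 cytosolic heat shock genes 4 were called higher and 0 lower (19.0% called, against 10.2% of all genes), of which 3 lost the call with slide as a block, with a median of 0.32 that turned to −0.27 with uncorrected mean signals. HSPB8, a small chaperone of selective autophagy, had ratios of 3.67, 3.57, 3.44, 1.96 and 2.78 on the HIPP arrays and 0.65, −0.87, −0.29, −1.46 and −1.19 on the shCtBP2 arrays. HIPP arrays were all raised, and the knockdown signal was above background on 2 of 5 arrays in the treated channel, so that the size of the difference is not measured: it ran from 1.08 to 4.04 over the settings. DNAJB2 differed by 1.42, limma adjusted p = 0.00186, HSPA1A, inducible HSP70, by 1.34, limma adjusted p = 0.0105, and HSPA6 by 1.05, limma adjusted p = 0.023. Within slide 3 these were 0.83, 0.37 and 0.40, and with slide as a block their limma adjusted p was 0.0697, 0.43 and 0.484. HSPA1A is nearly identical to HSPA1B, so its signal may include both.

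SREBP2 drives cholesterol synthesis genes when sterols are low. Of 23 tested, 9 were called higher with HIPP and 0 lower (39.1%), and the median was 0.65. HMGCS1, which makes HMG-CoA (chromosome 5, 43325874 to 43326897), had ratios of 2.55, 2.81, 2.85, 2.39 and 2.81 on the HIPP arrays and −0.35, 0.18, −0.42, 0.52 and 0.29 on the shCtBP2 arrays. The HIPP arrays were all more than 2 above control and the knockdown arrays straddled it (2.64 ± 0.20 (SE), limma adjusted p = 2.35e-05). MSMO1, a sterol methyl oxidase, averaged 2.51 ± 0.29 with HIPP and 0.18 ± 0.48 in shCtBP2 cells (SD, n = 5 each) (2.33 ± 0.24 (SE), limma adjusted p = 8.98e-05), while its control-channel difference was −0.65. INSIG1, which retains the SREBP complex in the endoplasmic reticulum, averaged above control in both groups, at 2.77 ± 0.37 with HIPP and 0.68 ± 0.75 in shCtBP2 cells (SD, n = 5 each) (2.10 ± 0.34 (SE), limma adjusted p = 0.00128).

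A rate-limiting enzyme, SQLE (1.497, limma adjusted p = 0.000182), the demethylase CYP51A1 (1.29, limma adjusted p = 0.000197) and the regulator SREBF2 (1.19, limma adjusted p = 0.00228) were also higher. FDFT1 (0.19) and IDI1 (0.15) were not called. With uncorrected mean signals 0 of the 23 were called and the median was 0.04. In fatty acid synthesis the list gave 1 call each way among 14 (14.3%, beside 10.2% of all genes): ACACB, a mitochondrial acetyl-CoA carboxylase, was higher (1.04, limma adjusted p = 0.00164) and SREBF1, the gene of the factor that drives lipogenesis, was lower (−1.42, limma adjusted p = 0.000581). SREBF1 averaged −1.09 ± 0.35 with HIPP and 0.33 ± 0.28 in shCtBP2 cells (SD, n = 5 each), opposite in direction to SREBF2. With slide as a block ACACB was at 0.83 (limma adjusted p = 0.0555) and SREBF1 at −0.89 (limma adjusted p = 0.0291), neither called.

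In central carbon metabolism the tricarboxylic acid cycle list held 4 lower calls and 0 higher among 17 tested (23.5%), with a median of 0.03. Lower calls ran from 2 to 9 over the settings, the 9 without the variability filter among 26 genes, and the median ran from −0.75 to 0.07. SUCLG1, a succinyl-CoA synthetase subunit, had ratios of −0.83, −1.34, −1.13, −1.14 and −1.38 on the HIPP arrays and 0.22, 0.18, 0.15, 0.23 and 0.26 on the shCtBP2 arrays. Every HIPP array was below every knockdown array (−1.37 ± 0.13 (SE), limma adjusted p = 6.46e-05). PC, pyruvate carboxylase, averaged −1.30 ± 0.39 with HIPP and 0.30 ± 0.20 in shCtBP2 cells (SD, n = 5 each) (−1.59 ± 0.20 (SE), limma adjusted p = 0.000257). IDH3G, an isocitrate dehydrogenase subunit, differed by −1.26, limma adjusted p = 0.00233, and SDHC, a succinate dehydrogenase subunit, by −1.07, limma adjusted p = 0.0139, the latter with overlapping groups. A slide block put IDH3G at −0.85 (limma adjusted p = 0.0887). FH, fumarase, differed by −0.96, limma adjusted p = 0.00258, short of 2-fold, and CS and OGDH differed by 0.19 and 0.25. Glycolysis gave 1 call among 18 (5.56%, under the 10.2% of all genes), HK2 (1.06, limma adjusted p = 0.00443), whose probes gave 1.85 and 0.28, while ENO1, PKM and PGK1 differed by −0.71, −0.56 and −0.56. LDHA, removed by the filter, was called lower without it (−1.07, limma adjusted p = 0.00039). SLC2A1, ENO2, PFKM, PFKP and PFKFB4, also removed, differed by −0.62, −0.41, −0.60, −0.39 and −0.79 and were not called.

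Mitosis genes gave 2 lower calls and 0 higher among 22 (9.09%, near the 10.2% of all genes, median −0.10), MKI67 (−1.20 ± 0.17 (SE), limma adjusted p = 0.000681) and TOP2A (−1.40 ± 0.21 (SE), limma adjusted p = 0.000754), and DNA replication genes gave 1 lower call among 20 (5.0%), POLA1 (−1.23, limma adjusted p = 0.00368). CENPE and POLE2, removed by the filter, were called lower without it (−1.08, limma adjusted p = 0.00019, and −1.53, limma adjusted p = 0.00105). Over the settings lower calls ran from 1 to 5 for mitosis and from 0 to 4 for replication, and higher calls reached 1 and 2. Blocked on slide, MKI67 was at −0.82 (limma adjusted p = 0.032) and POLA1 at −0.84 (limma adjusted p = 0.0781), neither called. PLK1 and CDC20 differed by −0.41 and −0.47 and were not called. In the list of growth arrest and p53 targets 3 of 19 (15.8%, beside 10.2% of all genes) were called higher and 0 lower. These were GADD45A (1.90 ± 0.31 (SE), limma adjusted p = 0.00157), the death receptor gene TNFRSF10A (1.44 ± 0.18 (SE), limma adjusted p = 0.000294) and GADD45G (1.21 ± 0.14 (SE), limma adjusted p = 0.000193); CDKN1A, the p21 gene, differed by 0.97, limma adjusted p = 0.00109, just short of 2-fold. With slide as a block GADD45A was at 1.26 (limma adjusted p = 0.0739) and GADD45G at 0.93 (limma adjusted p = 0.0106), neither called. MDA-MB-231 cells carry mutant p53. Among 12 BCL2 family genes 2 (16.7%) were called, both encoding death-promoting BH3-only proteins: BCL2L11, the BIM gene, averaged 1.04 ± 0.45 with HIPP and −0.73 ± 0.29 in shCtBP2 cells (SD, n = 5 each) (1.76 ± 0.23 (SE), limma adjusted p = 0.000348), and BMF was at least 1.14-fold higher, since it was not well above background in shCtBP2 cells. BID, which also encodes such a protein, had been removed by the filter and was called lower without it (−1.07, limma adjusted p = 0.000515). BAX, BAD and PMAIP1, also removed, differed by −0.31, −0.57 and −0.08 and were not called.

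Interferon-stimulated genes gave 3 lower calls and 0 higher among 22 tested (13.6%, beside 10.2% of all genes, median −0.07). DDX60 averaged −2.04 ± 0.43 with HIPP and −0.32 ± 0.41 in shCtBP2 cells (SD, n = 5 each) (−1.72 ± 0.25 (SE), limma adjusted p = 0.000703), IFIT1 differed by −1.50 ± 0.31 (SE), limma adjusted p = 0.0059, and the immunoproteasome subunit PSMB9 by −1.24 ± 0.29 (SE), limma adjusted p = 0.0103. IRF7 differed by 0.95, limma adjusted p = 0.00251, in the other direction and short of 2-fold. Inflammatory cytokine and NF-kB target genes gave 4 higher calls and 1 lower among 23 (21.7%), 0 and 1 after normexp and loess. The chemokines CXCL3 and CXCL2, close paralogues, differed by 1.84, limma adjusted p = 0.0035, and 1.29, limma adjusted p = 0.00948, but with slide as a block CXCL3 was at 0.81 (limma adjusted p = 0.0573) and CXCL2 at 0.45 (limma adjusted p = 0.329). IL24 and IL1A, dim in shCtBP2 cells, were at least 1.11-fold and at least 1.03-fold higher, with IL1A well above background on 1 of 5 HIPP arrays and at 1.15 (limma adjusted p = 0.0873) with slide as a block. IL11, a cytokine of the interleukin 6 family, was lower (−1.27, limma adjusted p = 0.000385). IL6 and TNF differed by 0.46 and 0.01 and were not called.

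The activin and TGF-beta list gave 5 higher and 2 lower calls among 23 (30.4%), and 0 of either after normexp and loess. INHBB, the activin B subunit, had ratios of −2.07, −2.11, −1.97, −0.93 and −2.33 on the HIPP arrays and −4.00, −4.23, −4.35, −4.19 and −3.30 on the shCtBP2 arrays. Both groups were far below control and the knockdown further so (2.13 ± 0.28 (SE), limma adjusted p = 0.000409). INHBA, the activin A subunit, averaged 1.89 ± 0.38 with HIPP and 0.47 ± 0.33 in shCtBP2 cells (SD, n = 5 each) (1.42 ± 0.22 (SE), limma adjusted p = 0.00098). SKIL, a SMAD corepressor, FSTL3, an activin binder, and the receptor ACVR2A differed by 1.15, 1.10 and 1.10. A slide block put SKIL at 0.68 (limma adjusted p = 0.15) and ACVR2A at 0.93 (limma adjusted p = 0.146), neither called. SMAD4 (−1.38, limma adjusted p = 0.0153) and the coreceptor TGFBR3 (−1.39, limma adjusted p = 0.00594) were lower. FST, the activin antagonist follistatin, averaged below control in both groups, at −1.20 ± 0.54 with HIPP and −1.21 ± 0.37 in shCtBP2 cells (SD, n = 5 each), and its difference was 0.02 ± 0.27 (SE), limma adjusted p = 0.973, with a 95% interval from −0.58 to 0.61. That interval does not cover the FST value with slide as a block, 0.95 (limma adjusted p = 0.0137).

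Cell adhesion and matrix genes were split. Collagens and matrix proteases gave 4 higher and 3 lower calls among 21 (33.3%), and 4 and 5 among 26 without the variability filter. LOX, which crosslinks collagen, averaged 2.29 ± 0.41 with HIPP and 0.14 ± 0.26 in shCtBP2 cells (SD, n = 5 each) (2.16 ± 0.21 (SE), limma adjusted p = 7.15e-05), and MMP14, a membrane-anchored protease, and COL5A1 differed by 1.64 and 1.24. TIMP3, a protease inhibitor, was lower at −1.67, limma adjusted p = 1.42e-05, with probes at −3.17 and −0.17, and TIMP2 was higher at 1.77, limma adjusted p = 0.00465. MMP13 counts among the lower calls, but its signals were not well above background on any array, so no difference is given for it. Of 13 mesenchymal genes 3 were called (23.1%): CD44 (1.27 ± 0.15 (SE), limma adjusted p = 0.000215) and ZEB1 (1.12 ± 0.19 (SE), limma adjusted p = 0.00165) were higher and CDH11, a mesenchymal cadherin, was lower (−2.55 ± 0.27 (SE), limma adjusted p = 0.000104). The ZEB1 call was lost after normexp and loess, with uncorrected mean signals, within slide 3 and with the treated channel alone. VIM and FN1 differed by −0.46 and −0.47. Among 24 epithelial junction and keratin genes 1 was called (4.17%, under the 10.2% of all genes), KRT81 (1.76 ± 0.19 (SE), limma adjusted p = 0.000111), and EPCAM differed by −0.11.

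In the YAP-TEAD list CCN2, a matricellular target, had ratios of −2.50, −3.47, −2.23, −2.86 and −2.93 on the HIPP arrays and −0.32, −1.05, −0.58, −0.13 and −0.16 on the shCtBP2 arrays. HIPP arrays were all far below control, beyond the knockdown arrays (−2.35 ± 0.25 (SE), limma adjusted p = 0.000117). PTPN14 and LATS2, which restrain YAP, were higher (1.45, limma adjusted p = 0.000923, and 1.16, limma adjusted p = 0.00617), and with CCN2 these were the only calls among 14 tested (21.4%). CCN1, removed by the filter, was called lower without it (−1.34, limma adjusted p = 0.000676). NT5E and AMOTL2, also removed, differed by −0.86 and −0.30 and were not called. Immediate early genes gave 1 higher call, FOSL2 (1.03, limma adjusted p = 0.000448), and 2 lower, EGR1 and DUSP6, an ERK phosphatase (−1.08, limma adjusted p = 0.0103), among 19 (15.8%, beside 10.2% of all genes). Blocked on slide, DUSP6 was at −0.35 (limma adjusted p = 0.367), and its call was also lost with slide as a random block. The FOSL2 call was lost in 6 settings, among them median centring and leaving out HIPP replicate 2 or 4. FOS was uneven between HIPP arrays and not called (−1.37, limma adjusted p = 0.328).

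Hypoxia-inducible genes gave 5 higher calls and 0 lower among 17 (29.4%), although the median was 0.16, near that of all genes, and turned to −0.29 with uncorrected mean signals. Beside ADM and EPAS1 these were VEGFA (1.68 ± 0.15 (SE), limma adjusted p = 4.09e-05), ANGPTL4, an inhibitor of lipoprotein lipase (2.56 ± 0.27 (SE), limma adjusted p = 0.000106), and P4HA2 (1.22, limma adjusted p = 0.000283), which with slide as a block was at 0.95 (limma adjusted p = 0.00966), short of 2-fold. CA9 was not above background, and EGLN3, NDRG1 and BNIP3 differed by −0.04, 0.16 and −0.82. Proteasome subunits (22 tested) and lysosomal genes (21 tested) had no call by limma in either direction. Their medians were 0.07 and 0.03, and without the fold threshold 5 proteasome and 4 lysosomal genes passed. The methods' test with an unadjusted p gave 0 in both lists at 2-fold.

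**Figure D5:**
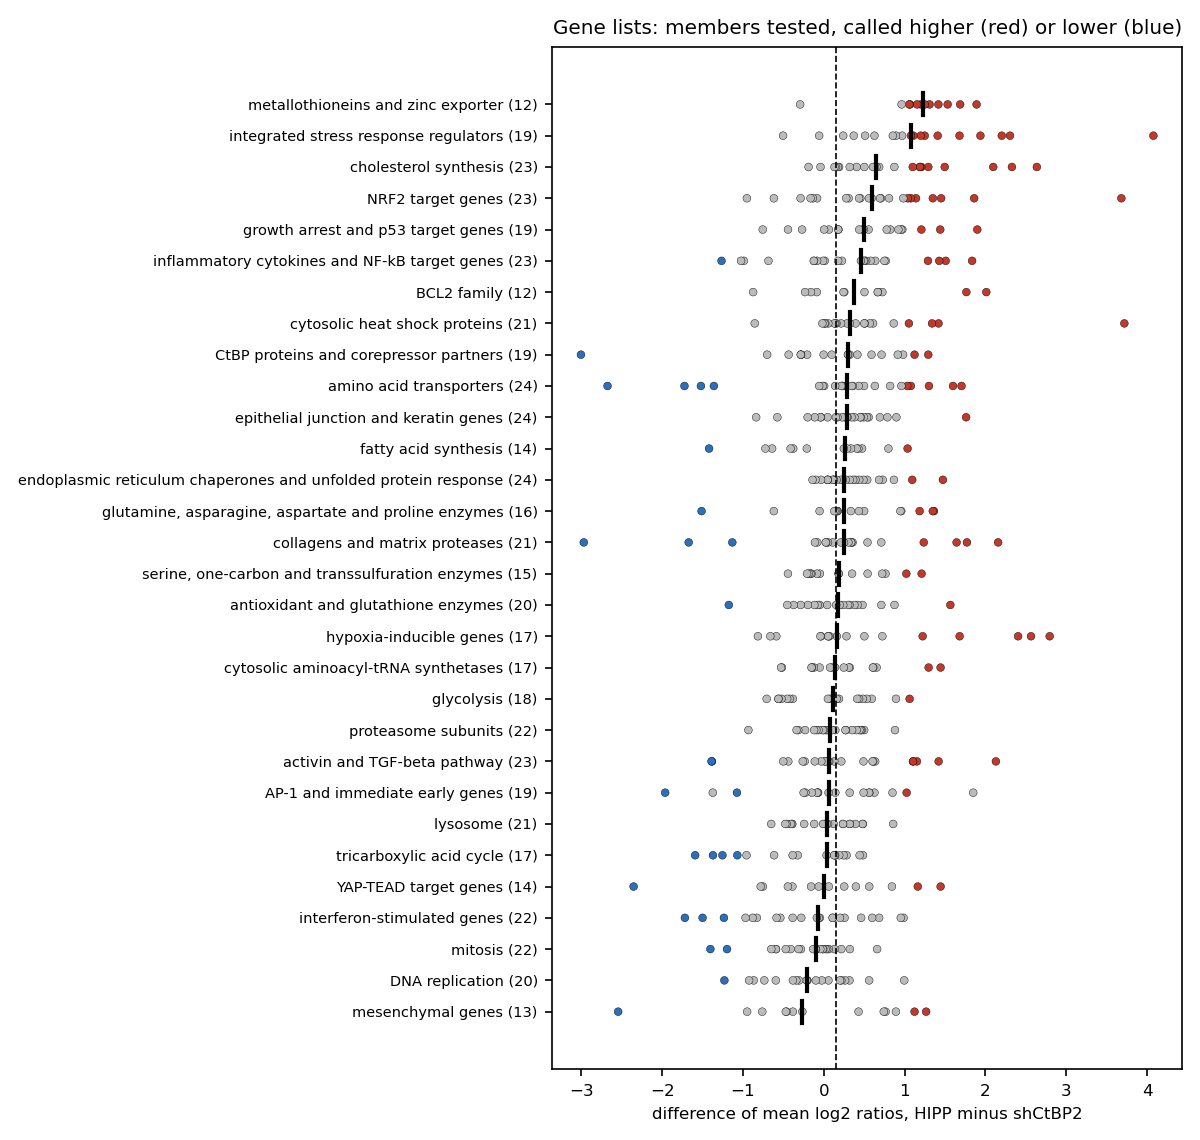
Difference of mean log2 ratios (HIPP minus shCtBP2) for every tested member of each list, with the number tested in parentheses, called members in red (higher) or blue (lower), a bar at the list's median and a dashed line at the median of all genes (0.14). Metallothioneins, integrated stress response regulators and cholesterol synthesis genes have the highest medians (1.22, 1.08 and 0.65).

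CtBP partners were also compared, since HIPP and the hairpin address the same protein. Among 19 tested genes for CtBP proteins and corepressor partners 2 were called higher, ZEB1 and RREB1 (1.29, limma adjusted p = 0.00955), and 1 lower, KLF8 (15.8% in all, beside 10.2% of all genes). The ZEB1 call was lost in 4 settings, among them normexp and loess and the treated channel alone. RREB1 was well above background in the treated channel on 2 of 5 shCtBP2 arrays, its treated-channel difference was 0.61, and with slide as a block it was at 1.02 (limma adjusted p = 0.139). The demethylase KDM1A differed by −0.70, limma adjusted p = 0.00581, and EHMT1, EHMT2 and RCOR1 by 0.32, −0.28 and 0.30. HDAC2 differed by 0.10, made of a treated-channel difference of −1.27 and a control-channel difference of −1.36.

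Of 19 tested genes that the study names for its treatments, 7 were called higher and 3 lower (52.6%), and 0 of either after normexp and loess; these were chosen on the same arrays and are not independent evidence. COL8A1, a collagen chain that the study also names, had been removed by the filter although no HIPP array overlapped a shCtBP2 array: it averaged −1.50 ± 0.55 with HIPP and 0.43 ± 0.08 in shCtBP2 cells (SD, n = 5 each), and without the filter it was called, at −1.93 ± 0.23 (SE, limma adjusted p = 0.000206). FBP1, the gluconeogenic fructose bisphosphatase, was not well above background in the treated channel on any shCtBP2 array and was on 1 of 5 HIPP arrays, and it was at least 1.03-fold higher with HIPP. HOPX and TSPAN8 averaged −1.20 and −1.68 with HIPP and −2.78 and −3.16 in shCtBP2 cells, where 2 and 3 of 5 treated signals were well above background. With slide as a block HOPX was at 0.41 (limma adjusted p = 0.179) and was not called. TFF1, a trefoil peptide like TFF3, was low in the knockdown alone on average (−0.23 ± 0.68 with HIPP and −1.74 ± 0.52 in shCtBP2 cells (SD, n = 5 each)), with overlapping groups (1.51, limma adjusted p = 0.00961). A slide block put TFF1 at 0.97 (limma adjusted p = 0.18). NR3C2, the mineralocorticoid receptor, was low with HIPP alone (−1.19 ± 0.21 (SE), limma adjusted p = 0.00202). LAT counts among the higher genes by its symbol, but the study describes an amino acid transporter under that name, so no value is given for it. LPAR1 and ANKRD1 averaged below control in both groups and were not called, with differences of −0.70 and −0.76. Blocked on slide, ANKRD1 was at −1.16 (limma adjusted p = 0.0212), which passed both thresholds, and LPAR1 at −1.14 (limma adjusted p = 0.138). CEBPB differed by 0.89, limma adjusted p = 0.000648, short of 2-fold, and was called with its brightest probe (1.25). No call was made for NPC2, CDK2AP1, ITGB1BP1 and AURKAIP1, which differed by 0.32, 0.09, −0.11 and 0.09. With slide as a block they were at 0.72 (limma adjusted p = 0.0378), 0.73 (limma adjusted p = 0.0526), −0.56 (limma adjusted p = 0.0984) and 0.31 (limma adjusted p = 0.19).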

How the data were processed

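Whole human genome arrays of 41000 gene probes were used in a 2-colour design, with Cy5 for treated or knockdown RNA and Cy3 for control RNA. The authors scanned them and ran Agilent Feature Extraction 9.5.3.1, which corrected background and normalised the dyes, and the deposited spot intensities are on a linear scale with decimal commas. The deposited value table holds log10 ratios of the same arrays; it differed from the scanner files' log ratio by at most 0.00499 and was an alternative. The labels tie each file to a group, and 5 HIPP and 5 shCtBP2 arrays were compared.

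Here log2 of the red over the green processed signal was taken, with outlier-flagged spots (101 to 178 per array) omitted, and a gene's value was the mean of its probes. Genes with values on fewer than 3 arrays of either group were dropped, and the 11% with the lowest interquartile range over the channel signals were removed, after the study's methods. Limma 3.58.1 in R 4.3.3 (lmFit, eBayes) gave the difference, with Benjamini-Hochberg adjustment over all genes tested; intervals are 95%. Probe names were updated through RefSeq by accession for 23434 probes, symbol for 2317 and synonym for 1040; 14209 kept the array's own name, and 17519 of 30992 genes have a current symbol. Probe positions are those of the array annotation (hg17), which names no exon. The number of arrays limits the precision.

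Alternatives were normexp (offset 50) with loess, uncorrected mean signals, median centring, no variability filter, bright genes alone, the brightest probe, all 15 arrays, slide and replicate blocks, other folds, Student's test and leaving out each array. The scripts were tested on simulated data. Named genes followed 1 rule: the 12 bright genes with the largest difference each way, dim genes in 1 group (4 each way), up to 4 called members of each list, the genes the study names, and the genes with the largest difference in the classes (6 or 4 each way). The bright and dim genes were taken only from called genes whose groups did not overlap. Other list members were named after their values were seen. Some list members count in the totals but are not reported here by name. The members and lists were chosen with earlier results of these data known.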

Additional observations from a re-analysis of the deposited data

Results flagged for a closer look

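In each group of 5 ratios of the named genes, the array farthest from the others was compared with Dixon's 95% limit for 5 values, and 25 of 288 groups passed it. Chance flags about 1 in 20 groups. HIPP replicate 4 accounted for 10 of the 25: its ratio was −1.52 for COL13A1, −1.43 for SLCO4A1, −0.93 for INHBB and −0.94 for SRPX, each the highest or lowest of the 5 HIPP arrays. It was also set apart in DMKN (−0.28), DNAJB2 (0.62), HSPA6 (0.42), TXNIP (0.26), GADD45A (0.27) and LOX (1.57).

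The other HIPP values were STON1 on replicate 5 (−3.61), FMOD on replicate 5 (1.08), MKI67 on replicate 2 (−1.93), HOPX on replicate 2 (−0.80) and EGR1 on replicate 1 (0.12). Among shCtBP2 arrays, replicate 1 was set apart in ABCC2 (−0.044), TOP2A (0.22), DDX60 (0.39) and IL6R (−0.95). Replicate 2 was set apart in DNAJB2 (0.46), replicate 3 in MT1B (0.18) and RREB1 (−1.50), replicate 4 in AURKAIP1 (−0.095) and replicate 5 in VPS18 (0.29) and COL8A1 (0.58). Without HIPP replicate 4, 4 of the 132 named genes that were called lost their call.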

How the results depend on the processing

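The counts of genes higher and lower with HIPP were 1444 and 1369. They were 306 and 268 after normexp and loess, 27 and 212 with uncorrected mean signals, 3105 and 1916 with slide as a fixed block, 2948 and 2154 at 1.5-fold and 3596 and 2379 at any fold. Higher genes were 51.3% of the calls, 11.3% with uncorrected mean signals, 61.8% with slide as a fixed block, 60.2% at any fold and 44.0% without the variability filter, of whose 3410 removed genes 481 were then called lower and 1 higher. The other settings, apart from leaving out arrays, gave 1162 to 1871 higher and 918 to 1881 lower genes. Leaving out 1 array gave 1177 to 1696 higher and 1205 to 1529 lower genes. Of the calls, 20.2% were kept after normexp and loess, 8.21% with mean signals, 76.4% with slide as a fixed block and 56.0% within slide 3, and the median difference of all genes was 0.14, 0.02, −0.13 and 0.22 in turn for the processed signals, normexp, mean signals and the fixed block. The cause was not tested.

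The control-signal count of 0 became 1 with bright genes alone, 2 with all 15 arrays, 1 with 75th percentile scaling and 731 with an unadjusted p; leaving out 1 array gave 0 to 15, and 15 came without shCtBP2 replicate 1. CTBP2 passed 2-fold with the brightest probe (1.20), slide as a fixed block (1.26), slide as a random block (1.04) and within slide 3 (1.26), and leaving out 1 array gave 0.86 to 1.09.

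Of 132 named genes that were called, 61 lost the call after normexp and loess, 96 with mean signals, 27 with slide as a fixed block and 56 within slide 3, and 0 of their values changed sign. Under every setting 21 of them were called, and 72 under every setting but normexp and mean signals. The deviations of arrays with the same replicate number correlated at 0.16, 0.30, 0.13, 0.06 and 0.12. Since 1 of these was under 0.1 and not every array was closest to its own number, the numbers were not taken to pair the arrays. The replicate block gave 1478 higher and 1385 lower genes, 0 control-signal genes and 0.98 for CTBP2, and it changed no call of a named gene. Signals near background limit dim genes to bounds, and values within slide 3 rest on 2 arrays a group.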
